A study of Mus musculus with 8 samples.

Results

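Solute carriers are the membrane proteins that move amino acids, sugars, ions, metals, vitamins and metabolites into and out of cells and organelles. The genes described here are the protein-coding genes of the deposited normalized table whose symbols start with Slc, leaving out the Slc16 family, Slc28a2, Slc29a1, Slc2a1 and Slc2a3. That table holds only genes with at least 10 reads, and within it the rule used names and gene types and no measured value. The rule took 212 of the 227 such Slc genes, out of 16418 genes in the table. Of the 212, 171 had enough reads to be tested and 41 did not.

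RNA-seq of polyadenylated RNA compared 2 groups of 4 libraries. The cells were naive CD4 T cells of spleen and lymph node, taken by flow sorting as CD3+, CD4+, CD25-, CD44 low or negative and CD62L+. All mice carried the genotype Satb1fl/fl x CD4-CreERT2wt/+. Satb1 encodes a nuclear protein that organises chromatin in T cells. In such mice tamoxifen lets a Cre recombinase driven by CD4 sequences cut the floxed Satb1 alleles. The KO libraries (Sample_2907_KO, Sample_2908_KO, Sample_2909_KO and Sample_2910_KO) came from mice given tamoxifen. The WT libraries (Sample_2911_WT, Sample_2913_WT, Sample_2914_WT and Sample_2915_WT) came from mice with the same alleles and no tamoxifen, so drug and intended deletion cannot be told apart. The labels do not say whether a library is 1 animal or a pool. Values per library are given in the order of these names. The p-values measure the spread between these libraries, which may be technical.

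A naive T cell is small and quiescent and takes up few nutrients. Carriers for glutamine, large neutral amino acids and glucose are the best known in this lineage, because their synthesis climbs when the cell is activated. Other carriers sit in the Golgi, lysosome or mitochondrion and set the pH, ion content or cofactor supply of those organelles. A carrier transcript gives the amount of message and not the transport activity.

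Libraries held 5227758 to 21998174 counted reads. Levels are given in CPM (reads relative to library size, scaled by TMM normalization), and levels are compared between genes only as CPM per kilobase of exon. Satb1 itself was at 855, 1032, 839.6 and 913 CPM in the KO libraries against 987, 1015, 1046 and 1083 CPM in the WT libraries. Its log2 fold change of -0.18 did not pass (edgeR adjusted p = 0.0582, and 0.00152 without Sample_2908_KO), so KO is used here as a group name. All 15 naive T cell markers were detected, and their summed level was 10999 to 11633 CPM in the KO libraries and 11159 to 11598 CPM in the WT libraries. The 9 B cell markers summed to 361 to 419 CPM in the KO libraries and 449 to 487 CPM in the WT libraries, and the 11 NK and CD8 markers to 72.7 to 81.7 CPM in the KO libraries and 85.9 to 93.4 CPM in the WT libraries, both without overlap. Prf1, Klrd1 and Cd8b1 made up most of the NK and CD8 sum. Their means were 39.5, 15.2 and 12.1 CPM in KO and 43.9, 21.8 and 16.1 CPM in WT. Ncr1 had only 3 reads in KO and 4 in WT, and Cd8a 10 and 18. The defining B cell gene Ms4a1 had a mean of 0.0818 CPM in the KO libraries and 0 reads in WT. The 12 myeloid markers overlapped (40.3 to 52.0 CPM in KO, 28.3 to 56.5 CPM in the WT libraries), with S100a8 and S100a9 at 0 reads. Of the 4 of these that could be tested, Ly6c2 rose 2.33-fold with overlap (edgeR adjusted p = 0.019), and Lyz2 ranged from 0 to 25.3 CPM within WT. Of the tested naive T cell markers 2 rose and 4 fell, and 1 each of the 5 tested B cell and 5 tested NK and CD8 markers fell. The 12 erythroid and platelet markers summed to at most 7.75 CPM, with Hbb-bs, Hbb-bt and Pf4 at 0 reads. The part of these other cells in the results below was not tested.

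Of the 171 tested solute carrier genes, 13 changed (7.6%), 8 higher and 5 lower in KO. The same threshold called 6.39% of all 11772 tested genes, 3.98% higher and 2.41% lower, so the overall share of carriers was near the background. A gene was called changed at an adjusted p under 0.05 in edgeR's quasi-likelihood test, with Benjamini-Hochberg adjustment over all tested genes. Of the 13, 10 moved by less than 1.5-fold and 1 by at least 2-fold. The median log2 fold change was -0.01 over the tested carriers and -0.00 over all tested genes. In bulk RNA, fewer cells of a type and less RNA per cell cannot be told apart. The calls were unevenly spread over transporter classes, which follow family numbers. In the bicarbonate, chloride and sulfate class 4 of 15 passed, as also with DESeq2 and limma-voom. Of the 8 sodium-proton and calcium exchangers 3 passed, as also with limma-voom, but only 1 with DESeq2. None of the 38 mitochondrial carriers of the Slc25 family and none of the 23 genes of the metal class did. The called genes Slc8b1 and Slc44a1, which also act in mitochondria, are counted in other classes. Whether any class differs from the rest was not tested.

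**Figure D1:**
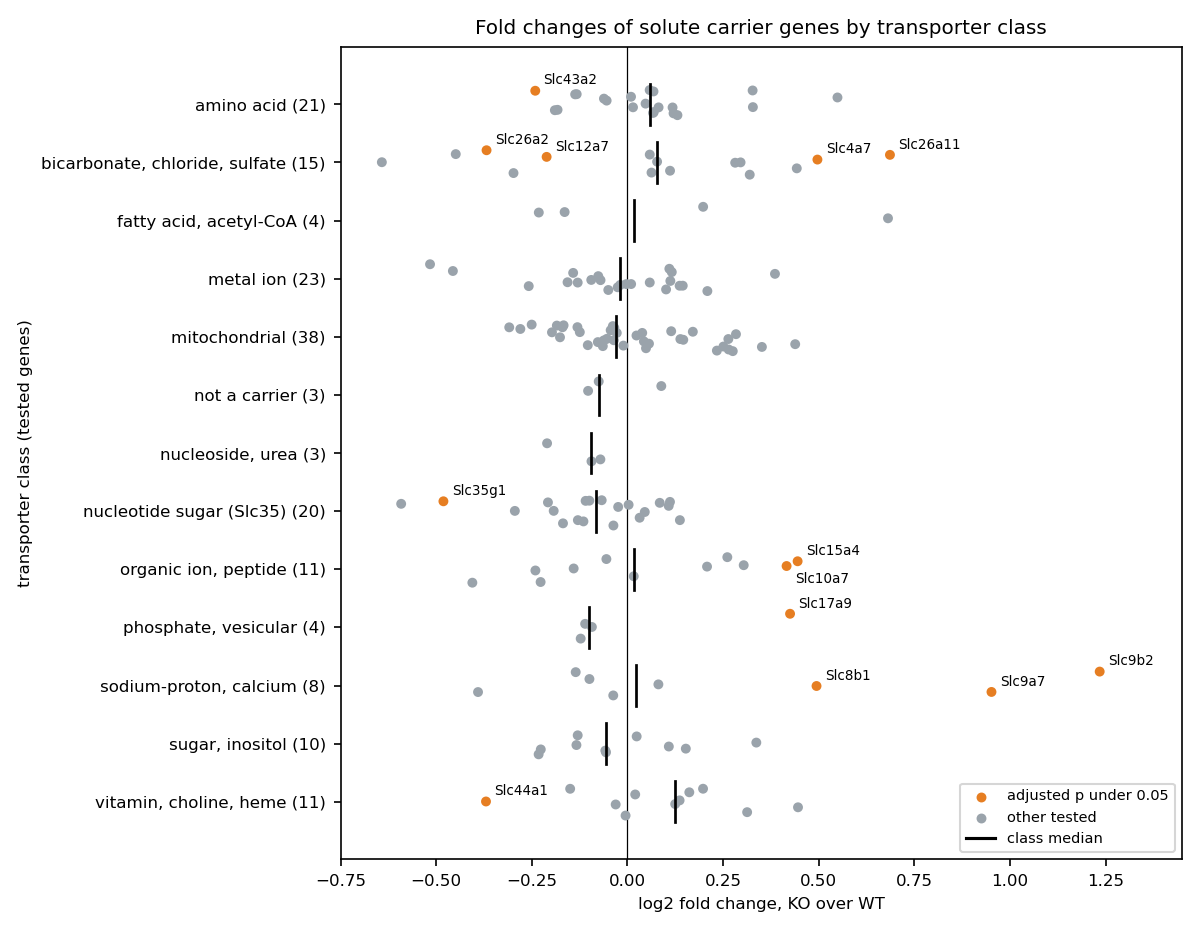
Each point is 1 of the 171 tested genes, placed by its log2 fold change (KO over WT) on the x axis and its transporter class on the y axis, with the number of tested genes in brackets. Orange points passed the adjusted p threshold and black bars are class medians. The called genes lie in 7 classes, and the class medians run from -0.102 to 0.125.

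Carriers of sulfate, bicarbonate and chloride moved in both directions. Slc26a11, a sodium-independent sulfate carrier (chromosome 11, 119355557 to 119381079 in mm10), had the lowest adjusted p of the carriers. Its level was 82.1, 74.7, 77.8 and 79.0 CPM in the KO libraries and 54.4, 46.9, 45.4 and 49.5 CPM in the WT libraries. All KO libraries were above all WT libraries, and the gene rose 1.61-fold (log2 fold change 0.69, SE 0.075, edgeR adjusted p = 1.24e-07). Slc26a2, the sulfate and chloride exchanger that supplies sulfate for proteoglycan synthesis (chromosome 18, 61192919 to 61211612), moved the other way. It stood at 65.7, 68.8, 60.2 and 66.4 CPM in the KO libraries and 89.6, 71.9, 82.4 and 92.4 CPM in the WT libraries. Every KO library was below every WT library, though Sample_2908_KO and Sample_2913_WT were close, and the gene fell (log2 fold change -0.37, SE 0.0769, edgeR adjusted p = 0.00192).

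These are the best expressed members of the Slc26 family after scaling by length. Per kilobase, Slc26a11 averaged 17.6 and Slc26a2 6.04 CPM over the 8 libraries. The ratio of their levels per kilobase was 4.28, 3.72, 4.43 and 4.08 in the KO libraries and 2.08, 2.23, 1.89 and 1.84 in the WT libraries (mean 4.13 ± 0.309 in KO and 2.01 ± 0.182 in WT, ± SD, n = 4 each). This pair was chosen after its values were seen, and the ratio is given without a test. Of the other Slc26 genes tested, Slc26a6 had a log2 fold change of 0.06, Slc26a10 of -0.30, Slc26a8 of -0.45 and Slc26a1 of -0.64, and none passed.

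Slc4a7, an electroneutral sodium-bicarbonate cotransporter that brings base into the cell (chromosome 14, 14702279 to 14799940), rose. It was at 79.1, 91.8, 71.5 and 73.4 CPM in the KO libraries and 50.6, 47.6, 62.0 and 60.2 CPM in the WT libraries, without overlap. The rise was 1.41-fold (log2 fold change 0.50, SE 0.0896, edgeR adjusted p = 0.000559). Slc12a7, a potassium-chloride cotransporter that lets chloride leave the cell (chromosome 13, 73733094 to 73816754), fell slightly. Its level was 435, 453, 429 and 482 CPM in the KO libraries and 527, 531, 497 and 529 CPM in the WT libraries. Sample_2910_KO and Sample_2914_WT were the nearest libraries of the groups, and the log2 fold change was -0.21 (SE 0.0535, edgeR adjusted p = 0.0119). Without Sample_2907_KO the call of Slc12a7 was lost (adjusted p = 0.0559).

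The remaining members of this class did not pass. Slc12a2, which imports sodium, potassium and chloride, had a log2 change of 0.32 (edgeR adjusted p = 0.111; 22.1 ± 2.07 CPM in the KO libraries and 17.6 ± 1.21 CPM in the WT libraries, ± SD, n = 4 each). Slc4a8, a sodium-driven chloride-bicarbonate exchanger, had 0.30 (adjusted p = 0.11; 25.4 ± 1.8 and 20.7 ± 1.29 CPM). In both genes all KO libraries were above all WT libraries. Slc4a2, a chloride-bicarbonate exchanger, had 0.06. The summed level of the whole class was 1062 ± 32.9 CPM in the KO libraries and 1070.2 ± 14.9 CPM in the WT libraries, so the members' movements left the total within the spread of the libraries.

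Among sodium-proton and calcium exchangers the 3 called genes were all higher in KO and all of low abundance. Slc9a7, a sodium-proton exchanger of the trans-Golgi network (chromosome X, 20105754 to 20291807), was at 7.45, 9.21, 8.54 and 7.77 CPM in the KO libraries and 5.79, 3.42, 3.43 and 4.85 CPM in the WT libraries. The groups did not overlap, and Slc9a7 rose 1.93-fold (log2 fold change 0.95, SE 0.214, edgeR adjusted p = 0.00405). Slc9b2, another sodium-proton exchanger (chromosome 3, 135307700 to 135345387), had the largest fold change of the tested carriers. It was at 3.05, 2.30, 2.27 and 2.41 CPM in the KO libraries and 0.965, 0.721, 0.758 and 1.73 CPM in the WT libraries, a 2.35-fold rise that rests on 85 KO and 46 WT reads (log2 fold change 1.23, SE 0.377, edgeR adjusted p = 0.0442). Slc8b1, the mitochondrial sodium-calcium exchanger (chromosome 5, 120511168 to 120534024), was at 15.3, 12.6, 17.6 and 15.5 CPM in the KO libraries and 12.5, 10.3, 10.7 and 10.2 CPM in the WT libraries. Sample_2908_KO and Sample_2911_WT almost met, and the rise was 1.41-fold (log2 fold change 0.49, SE 0.146, edgeR adjusted p = 0.0354).

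The last 2 calls were fragile. Slc9b2 lost its call in 13 of 19 other settings, among them DESeq2 (adjusted p = 0.0793) and leaving out any 1 library other than Sample_2915_WT (edgeR adjusted p 0.0651 to 0.198). Its log2 fold change fell to 0.77 when all libraries were thinned to the depth of the shallowest (adjusted p = 0.338). Slc8b1 lost its call in 11 of 19, among them DESeq2 (adjusted p = 0.052) and leaving out Sample_2907_KO, Sample_2909_KO, Sample_2910_KO, Sample_2913_WT, Sample_2914_WT or Sample_2915_WT (edgeR adjusted p 0.0805 to 0.132). Slc9a7 passed in all 19. The endosomal or Golgi exchangers Slc9a8 and Slc9a9, both more abundant, did not pass and had log2 fold changes of -0.14 and -0.10.

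The other 3 carriers that rose were Slc17a9, Slc15a4 and Slc10a7. Slc17a9, which loads vesicles with ATP and other nucleotides (chromosome 2, 180725263 to 180742280), was at 195, 163, 200.03 and 192 CPM in the KO libraries and 149.8, 129.9, 132 and 147 CPM in the WT libraries. Sample_2908_KO was the lowest KO library and still above every WT library. Slc17a9 rose 1.34-fold (log2 fold change 0.43, SE 0.0665, edgeR adjusted p = 4.78e-05). By family number it falls among the phosphate carriers, where the plasma membrane phosphate importers Slc20a1 and Slc20a2 had log2 fold changes of -0.09 and -0.11 and the lysosomal sialic acid exporter Slc17a5 had -0.12, none of which passed.

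Slc15a4, an endolysosomal carrier of histidine and small peptides that takes part in Toll-like receptor signalling (chromosome 5, 127595664 to 127632897), was at 24.8, 22.7, 26.5 and 25.4 CPM in the KO libraries and 20.3, 17.5, 19.4 and 16 CPM in the WT libraries. It rose 1.36-fold without overlap (log2 fold change 0.45, SE 0.115, edgeR adjusted p = 0.014), and missed the threshold without Sample_2915_WT (adjusted p = 0.078). Slc10a7, an orphan member of the bile acid carrier family (chromosome 8, 78509346 to 78734003), was at 25.3, 31.7, 32 and 32.1 CPM in the KO libraries and 20.3, 22.5, 24.6 and 22.3 CPM in the WT libraries. Sample_2907_KO stood below the other 3 KO libraries and just above Sample_2914_WT, and the rise was 1.33-fold (log2 fold change 0.42, SE 0.108, edgeR adjusted p = 0.0142). The call of Slc10a7 was lost in 3 of 19 settings (highest adjusted p 0.077). These were thinning to the shallowest library, leaving out Sample_2911_WT and Sample_2914_WT together, and leaving out Sample_2910_KO (edgeR adjusted p = 0.0525).

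**Figure D2:**
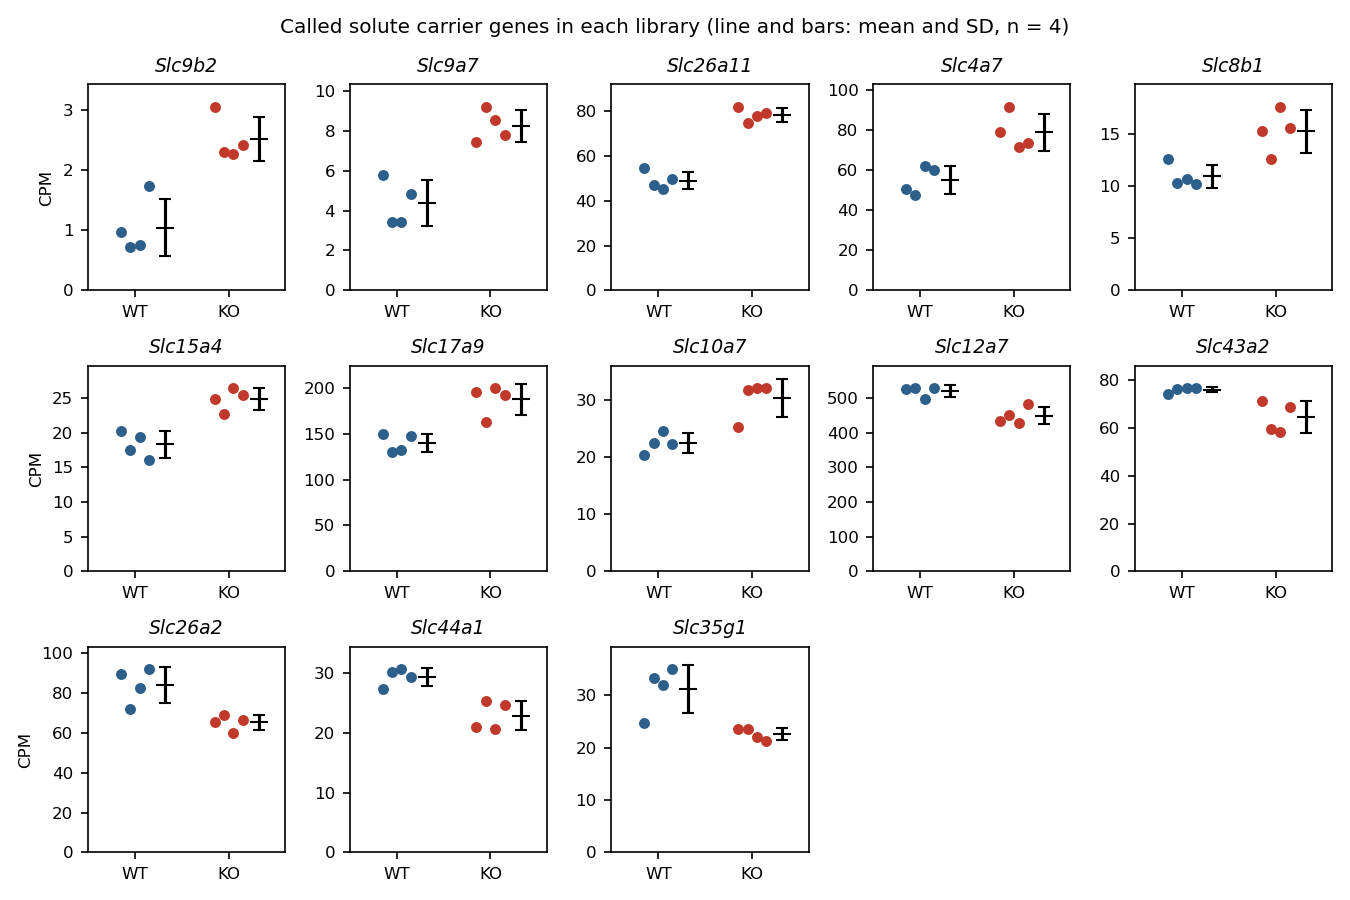
The panels show the 13 called genes, ordered by log2 fold change from the highest (Slc9b2) to the lowest (Slc35g1). The y axis is CPM from 0, each point is 1 library (blue WT, red KO), and black bars are mean and SD of 4 libraries. In every panel the KO and WT points do not overlap, which held for 11.1% of all tested genes. The panels were chosen by a test on these same libraries, so their separation is no further evidence.

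Besides Slc26a2 and Slc12a7, 3 carriers fell. Slc35g1, a member of the nucleotide sugar carrier family (chromosome 19, 38395980 to 38405610), was at 23.6, 23.7, 22.0 and 21.3 CPM in the KO libraries and 24.7, 33.3, 32 and 35.1 CPM in the WT libraries. Sample_2911_WT lay just above the KO libraries and well below the other WT libraries. The log2 fold change was -0.48 (SE 0.109, edgeR adjusted p = 0.00439). Thinning all libraries to the depth of the shallowest lost the call of Slc35g1 (edgeR adjusted p = 0.0634). Slc44a1, a choline carrier of the plasma membrane and mitochondria (chromosome 4, 53440413 to 53622478), was at 20.9, 25.2, 20.5 and 24.6 CPM in the KO libraries and 27.2, 30.1, 30.7 and 29.3 CPM in the WT libraries. Its log2 fold change was -0.37 (SE 0.105, edgeR adjusted p = 0.0284). It lost its call in 7 of 19 settings, including the removal of Sample_2907_KO, Sample_2909_KO, Sample_2913_WT, Sample_2914_WT or Sample_2915_WT (adjusted p 0.0651 to 0.11). Its relative Slc44a2, at 691 ± 15.5 CPM in the KO libraries and 693 ± 17.3 CPM in the WT libraries (± SD, n = 4 each), had a log2 change of -0.00 (adjusted p = 0.978).

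Slc43a2, which carries large neutral amino acids without sodium (chromosome 11, 75531694 to 75577575), was the only called amino acid carrier. It was at 71.4, 59.5, 58.4 and 69.0 CPM in the KO libraries and 74.3, 76.4, 76.9 and 76.7 CPM in the WT libraries, with a log2 change of -0.24 (SE 0.0748, edgeR adjusted p = 0.0489). It lost its call in 13 of 19 settings, with DESeq2 (adjusted p = 0.0722), limma-voom (0.0948) and the removal of Sample_2908_KO, Sample_2909_KO or any WT library (edgeR adjusted p 0.0598 to 0.15). The libraries were not strand-specific by kit, and 922 of the 10042 exon bases of Slc43a2 overlap Gm45606 on the opposite strand, so their reads may not be separable. Slc15a4 and Slc44a1 also share exon bases with a gene on the opposite strand, Gm43474 with 0 reads and 1700060J05Rik with 24.

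The other 20 tested amino acid carriers include those best known from T cell activation. Slc1a5, a neutral amino acid exchanger that takes up glutamine, was the most abundant of the class per kilobase (61.4 CPM per kilobase). It stood at 263 ± 7.98 CPM in the KO libraries and 249.9 ± 13.7 CPM in the WT libraries (± SD, n = 4 each; log2 fold change 0.07, SE 0.0547, edgeR adjusted p = 0.563). Slc7a5, the leucine exchanger, had a log2 fold change of 0.01 and its heavy chain partner Slc3a2 had 0.05. Slc38a2, a sodium-coupled glutamine and alanine carrier, was lower in every KO library than in any WT library but did not pass (log2 fold change -0.13, adjusted p = 0.178). The groups almost met, with the highest KO library at 329 CPM and the lowest WT library at 330.3 CPM. Slc38a1, of the same kind, had 0.13 and the lysosomal arginine sensor Slc38a9 had -0.19 (adjusted p = 0.208 and 0.116). Slc7a1, the arginine importer, had 0.02 and the taurine importer Slc6a6 had -0.05. The summed level of the class was 1708.5 ± 22.0 CPM in the KO libraries and 1710.0 ± 17.9 CPM in the WT libraries.

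Mitochondrial carriers of the Slc25 family were the largest class, with 0 of 38 tested genes called by edgeR, DESeq2 or limma-voom and 6 at an unadjusted edgeR p under 0.05, a level that 2124 of all 11772 tested genes reached. Slc25a5, an ADP and ATP exchanger, was the most abundant per kilobase (109 CPM per kilobase) and had a log2 change of -0.04 (adjusted p = 0.85). Slc25a3, the phosphate carrier, had -0.06. Slc25a1, which exports citrate for lipid synthesis, was the uncalled carrier nearest the threshold. It was at 25.3, 24.9, 31.7 and 23.4 CPM in the KO libraries and 22.2, 22.9, 19.0 and 19.8 CPM in the WT libraries, without overlap (log2 fold change 0.35, SE 0.116, edgeR adjusted p = 0.0694). The iron importer Slc25a37 and the aspartate-glutamate exchanger Slc25a12 had -0.17 and -0.18 (adjusted p = 0.126 and 0.125).

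Metal carriers likewise had 0 of 23 genes called by edgeR, DESeq2 or limma-voom, and 1 at an unadjusted edgeR p under 0.05 (Slc39a8, a zinc and manganese importer, log2 fold change -0.52, adjusted p = 0.219). Slc41a1, a magnesium carrier, led the class per kilobase and stood at 70.5 ± 2.53 CPM in the KO libraries and 64.1 ± 3.41 CPM in the WT libraries (± SD, n = 4 each; log2 fold change 0.14, edgeR adjusted p = 0.314). The tested zinc exporters of the Slc30 family, 6 in number, had log2 fold changes from -0.26 to 0.10. The 12 tested Slc39 genes, which mostly import zinc, had -0.52 to 0.39.

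Sugar carriers left after the removal of the main glucose transporters had 0 of 10 called by the same 3 tools and 1 at an unadjusted edgeR p under 0.05. That gene was Slc5a3, the myo-inositol importer, at 48.6, 41.2, 30.6 and 41.4 CPM in the KO libraries and 36.9, 30.3, 31.7 and 29.9 CPM in the WT libraries, with overlap through Sample_2909_KO (log2 fold change 0.34, edgeR adjusted p = 0.0797). It passed without Sample_2909_KO (0.00514), without Sample_2911_WT (0.0417) and with no count filter (0.0232), and it shares 159 exon bases with Mrps6 on the same strand. Slc50a1, which carries glucose across Golgi and plasma membranes, was the most abundant of the class at 74.7 CPM per kilobase (log2 fold change -0.06).

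The nucleotide sugar class was formed by family number (Slc35), and carriers of nucleotide sugars feed glycosylation in the Golgi. The class had 1 of 20 called, Slc35g1, and what Slc35g1 itself carries was not examined. Slc35c1, the GDP-fucose carrier, led the class per kilobase and had a log2 change of 0.05 (edgeR adjusted p = 0.773). The 13 of 20 with a negative fold change and the class median of -0.08 stand beside 51.5% negative among all tested carriers. In the vitamin, choline and heme class only Slc44a1 passed. Slc23a2, the vitamin C importer, had 104 ± 10.7 CPM in the KO libraries and 90.3 ± 4.12 CPM in the WT libraries without overlap (± SD, n = 4 each; log2 fold change 0.20, edgeR adjusted p = 0.101) and passed without Sample_2909_KO (0.0412).

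The fatty acid and acetyl-CoA class (4 tested) and the nucleoside and urea class (3 tested) had 0 called by edgeR, DESeq2 or limma-voom, with 1 (Slc27a3) and 0 genes at an unadjusted edgeR p under 0.05. Slc27a4, a fatty acid carrier with acyl-CoA synthetase activity, had 0.20. Slc14a1, a urea channel, was at 48.8 ± 7.25 CPM in the KO libraries and 56.1 ± 7.80 CPM in the WT libraries (± SD, n = 4 each; -0.21, edgeR adjusted p = 0.292), and passed without Sample_2908_KO (0.0449). The 3 genes with Slc symbols that encode no carrier (Slc9a3r1, a scaffold protein, Slc7a6os and Slc4a1ap) had log2 fold changes of 0.09, -0.10 and -0.07, and none was called by any of the 3 tools or had an unadjusted edgeR p under 0.05.

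Over the 171 tested genes, levels ran from 0.163 to 119 CPM per kilobase with a median of 6.04, against a median of 7.78 for all tested genes. The scaffold gene Slc9a3r1 stood highest, followed by the carriers Slc25a5, Slc44a2 (79.8), Slc50a1 and Slc25a3 (73.5). Called genes covered most of this range. Slc17a9 (51.1 CPM per kilobase) and Slc12a7 (38.3) were the 8th and 9th highest of the 171, while Slc9b2 (0.323) was 168th. The median of the 13 called genes was 4.41 CPM per kilobase.

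**Figure D3:**
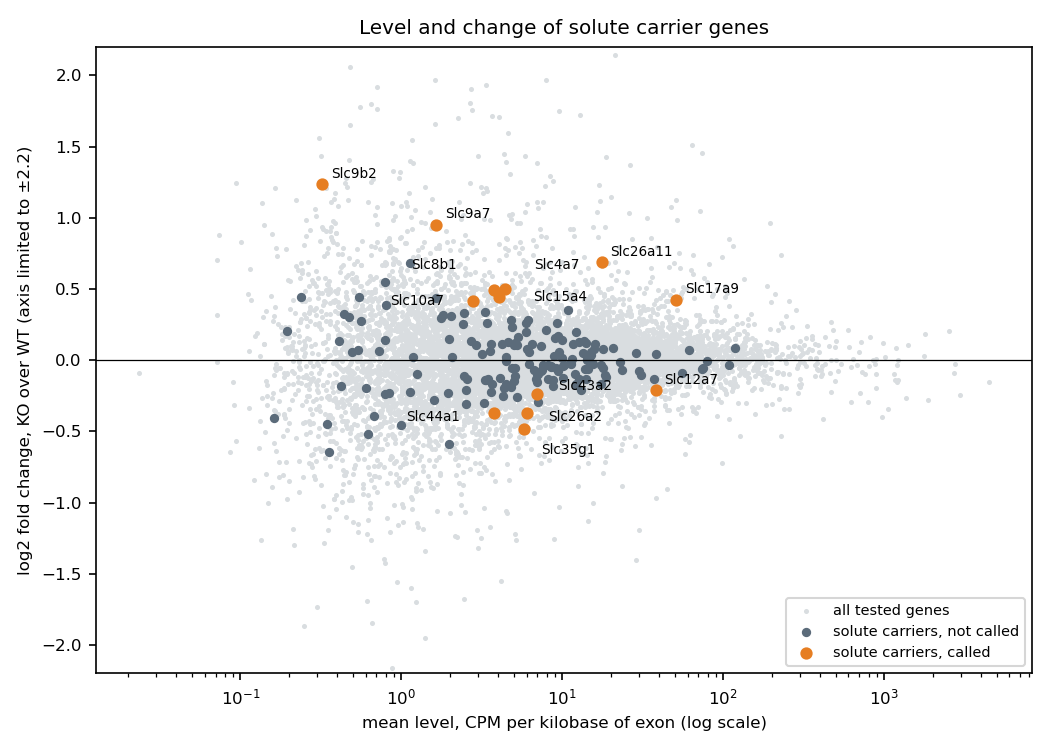
The x axis is the mean level in CPM per kilobase of exon on a log scale and the y axis the log2 fold change (KO over WT), limited to ±2.2 so that more extreme genes outside the family are not drawn. Grey points are all tested genes, dark points uncalled carriers and orange points the 13 called carriers. Slc9b2 has the largest rise and one of the lowest levels, while Slc12a7 is called at a log2 fold change of only -0.21.

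Beyond the called genes, KO and WT libraries did not overlap in 12 further tested carriers, which makes 25 of 171 (14.6%, 18 higher and 7 lower in KO). Over all 11772 tested genes the share was 11.1%, with 733 higher and 572 lower. Whether the carriers differ from all genes in this was not tested. At an unadjusted p under 0.05 there were 32 of 171 carriers, including the 13 called, against the 2124 of 11772 genes given above, so the carriers' share at that level was near the background.

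The variation between libraries of a group was mostly small but had 1 large exception. Slc15a2, a proton-coupled peptide carrier, was at 178, 24.4, 80.8 and 153 CPM in the KO libraries and 129.9, 77.1, 153 and 64.2 CPM in the WT libraries. The KO libraries spanned 7.28-fold and the WT libraries 2.38-fold, with Sample_2907_KO, Sample_2910_KO, Sample_2914_WT and Sample_2911_WT high and Sample_2908_KO lowest. The group means were close (109 ± 69.8 CPM in the KO libraries and 106 ± 42.1 CPM in the WT libraries, ± SD, n = 4 each; log2 fold change 0.02, SE 0.619, edgeR adjusted p = 0.995). The within-group SD of log2(CPM + 0.5) was 1.0 for Slc15a2, 0.443 for the carrier next to it in order (Slc22a17) and 0.124 for the median of the 144 carriers with a mean of at least 5 CPM. Over all 9549 genes at that level, Slc15a2 ranked 12th.

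Slc15a2 lies on chromosome 16 (36750177 to 36784962), and its well expressed neighbours did not share its spread. Golgb1 was at 156 to 193 CPM and Hcls1 at 230.4 to 244 CPM over the same 8 libraries. Slc15a2 made the summed level of the organic ion and peptide class vary from 216 to 369 CPM. Without it the class summed to 195 ± 6.82 CPM in the KO libraries and 182 ± 7.0 CPM in the WT libraries.

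**Figure D4:**
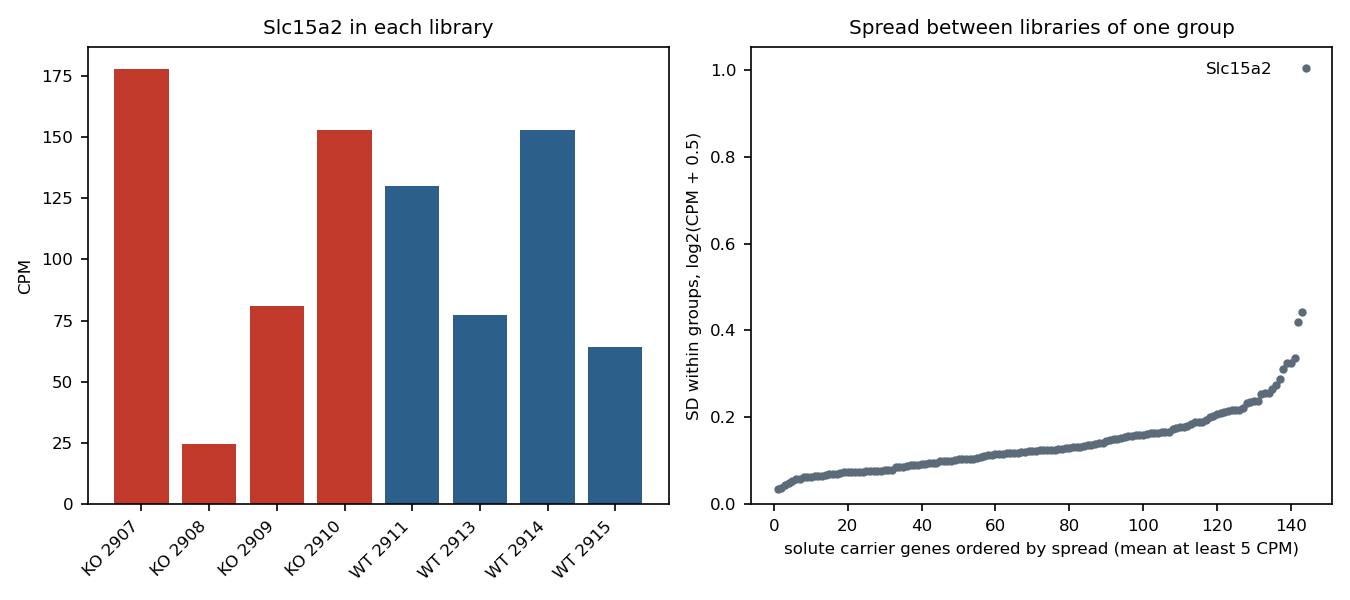
On the left, bars give the level of Slc15a2 in CPM in each library (red KO, blue WT), from 24.4 in Sample_2908_KO to 178 in Sample_2907_KO. On the right, the 144 carriers with a mean of at least 5 CPM are ordered by their within-group SD of log2(CPM + 0.5), pooled over both groups, and Slc15a2 stands alone at 1.0.

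The 41 carriers below the count filter had 10 to 102 reads each over the 8 libraries, with a median of 28. For these, reads were pooled per group and the KO to WT ratio was given an exact 95% interval that covers counting error only. The interval lay above 1 for 8 genes and below 1 for 6, but it leaves out the spread between libraries. The same share over other genes below the filter was not computed, so these counts cannot be read as particular to carriers. With no count filter 2 of the 41 passed in edgeR, Slc15a1 and Slc7a2. Trend fits of limma on log2 of the deposited values plus 1 or 0.5 also called both. Their adjusted p was 0.0125 and 0.0194 for Slc15a1, and 0.0172 and 0.0226 for Slc7a2. Slc15a1, a peptide carrier related to Slc15a2, had 1, 2, 0 and 1 reads in KO and 4, 10, 16 and 13 in WT, a pooled ratio of 0.122 (interval 0.0319 to 0.336; edgeR adjusted p = 0.0103 without a filter). All WT libraries were above all KO libraries. Slc7a2, a cationic amino acid carrier, had 39, 8, 10 and 30 reads in KO and 2, 0, 0 and 13 in WT, a ratio of 7.62 (4.38 to 14.2; edgeR adjusted p = 5.21e-05 without a filter). Sample_2907_KO and Sample_2910_KO carried most of the KO reads and Sample_2915_WT most of the WT reads, and the groups overlapped. DESeq2 gave Slc7a2 an adjusted p of 0.294 and Slc15a1 none. Slc15a3, a lysosomal relative of Slc15a4 named after its values were seen, had 35 reads in KO and 9 in WT (ratio 5.11, interval 2.41 to 12.1) and was not tested.

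Genes that work beside solute carriers were followed as lists. Carriers with other symbols had 1 of 31 tested members higher and 4 lower, with a median log2 fold change of 0.04. Unc93b1, the chaperone of endosomal Toll-like receptors, rose (1.71). Among those that fell were Sv2a, a vesicle protein (-0.79), Mfsd10 (-0.43) and Sidt1 (-0.27). Genes of the ATF4 response to amino acid shortage had 2 of 21 higher and 0 lower (median 0.11): Atf4 itself and Aldh18a1, a proline synthesis enzyme, both at 0.27. Without overlap of the groups but not passing, Ddit3 was lower (-0.32, edgeR adjusted p = 0.0632) and Ddit4 higher (0.52, 0.0785). Asns and Chac1 of this list had too few reads to be tested. For amino acid sensing by mTORC1 1 of 30 was lower, Nprl3, a subunit of a complex that restrains the kinase (-0.33; median 0.01). Glutamine use had 1 of 12 higher, glutamine synthetase Glul (0.28; median 0.10). Regulators of carriers had 1 of 22 higher, the sterol factor Srebf2 (0.19; median 0.04). Iron handling had 0 of 12 called by edgeR, DESeq2 or limma-voom with 1 at an unadjusted p under 0.05 (median 0.04), and the zinc list 0 of 2 with 1 at that level (median 0.08), which limma-voom called. All these calls are edgeR's over all genes, whose background share was 6.39%.

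Promoter windows (250 bases before to 50 after a start site, RefSeq, GRCm38.p6) were found for 9 of the 12 called carriers outside chromosome 18. They were searched on both strands for an ATF4-type element (TGATGCAA), an interferon-response element and a sterol-response element. None of the 9 held any of them. Among all 27025 genes of the table outside chromosome 18, 1.03%, 3.99% and 0.0999% had a window with the respective element. These letters were thus not in these windows, which says nothing of the factors, and no promoter is shown because none met the rule for showing one.

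**Figure D5:**
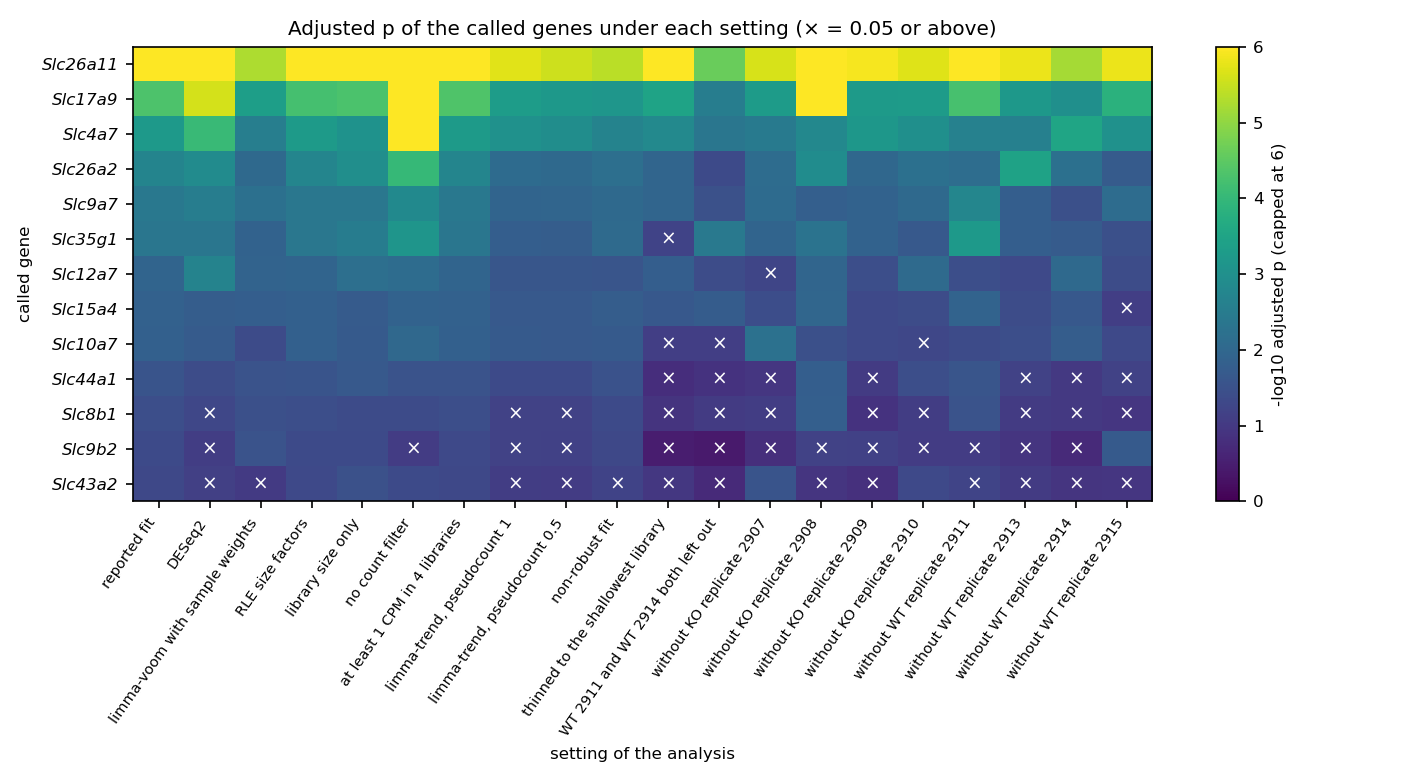
Rows are the 13 called genes in order of adjusted p, columns the reported fit and 19 other settings, and the colour gives -log10 of the adjusted p, capped at 6. A cross marks an adjusted p of 0.05 or above. Slc26a11, Slc17a9, Slc4a7, Slc26a2 and Slc9a7 have no cross, and Slc9b2 and Slc43a2 have 13 each.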

How the data were processed

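The deposited count table holds read counts per gene for 53465 gene IDs. The deposited normalized signal table holds 16418 genes with at least 10 reads, each value being the count over 1 size factor per library. The kit (TruSeq RNA, version 2) does not mark strand, and reads were single-end, per the labels' protocols. The submitters' processing notes name build mm10 and the tools DESeq2 1.22.2, FastQC, CASAVA 1.8.2 and R 3.5.3. For aligner, counter and annotation the sources used here give nothing.

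KO and WT were compared on the deposited counts by the robust quasi-likelihood F test of edgeR 4.0.16 under R 4.3.3, with TMM and filterByExpr, on 11772 genes. Each SE was derived from the fold change and its F statistic. Positions, exon lengths and overlaps are from GENCODE M21 (GRCm38), which held 99.6% of the IDs. Replicates within a group all differed, with a chi-square per gene of 2.61 to 10.4. Transporter classes follow family numbers. Named genes are the called carriers, the highest per kilobase of each class, the next 5 by p, carriers below the filter that edgeR called without it, and called list genes. Other uncalled relatives were named for their roles after their values were seen. Members and lists were chosen with earlier results of these data known. Alternatives were DESeq2 1.42.0, limma 3.58.1 (voom with weights, and trend on log2 of the deposited values plus 1 or 0.5), RLE or no scaling factors, other count filters, a non-robust fit, thinning, and leaving out libraries. A few genes that these rules would name are not reported here. Of these steps, only the edgeR fit was tested on simulated counts.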

Additional observations from a re-analysis of the deposited data

Results flagged for a closer look

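In each group of 4 libraries, the highest or lowest value was compared with the others by its gap over the range (Dixon's 95% limit). Of 96 groups examined, 5 stood out, and chance gives about 1 in 20. Slc12a7 was lowest among the WT libraries in Sample_2914_WT at 497 CPM, where the others were 527 to 531. Slc10a7 was lowest among the KO libraries in Sample_2907_KO at 25.3 CPM, where the others were 31.7 to 32.1. Slc1a5 was lowest in Sample_2908_KO at 251 CPM, against 267 in each of the other KO libraries. Slc23a2 was lowest in Sample_2913_WT at 84.2 CPM, against 91.9 to 92.8. The summed level of the fatty acid and acetyl-CoA class was highest in Sample_2910_KO at 66.4 CPM, against 55 to 56.2 in the other KO libraries.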

How the results depend on the processing

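Across 19 alternatives, Slc26a11, Slc17a9, Slc4a7, Slc26a2 and Slc9a7 passed in every one, with the direction reported. No called carrier reversed in any of them. Thinning every library to 5227758 reads left 7 carriers called (5 higher and 2 lower), all among the 13. Leaving out Sample_2911_WT and Sample_2914_WT together left 8 (5 higher and 3 lower), also all among the 13, and 481 of all genes called. Leaving out 1 library at a time gave 9 to 13 called carriers, 5 to 8 higher and 3 to 6 lower, and 562 to 836 called genes over all. DESeq2 called 10 and limma-voom 12, all among the 13. Satb1 passed with limma-voom (log2 fold change -0.19), library size only (-0.20) and no count filter (-0.19), and leaving out 1 library gave -0.25 to -0.15. Slc38a9 passed only without Sample_2908_KO and Slc35d2 only without Sample_2911_WT. The carriers' median log2 fold change stayed between -0.03 and -0.01. No paired analysis was possible because the groups share no replicate numbers. Read number limits the precision for Slc9b2 (85 KO and 46 WT reads) and for the 41 carriers below the filter (10 to 102 reads each).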
